A study of Arabidopsis thaliana with 20 samples.

Results

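MicroRNA precursor genes are short loci whose transcripts fold into hairpins from which small regulatory RNAs are cut. They were taken as the nuclear loci of the TAIR10.1 annotation (RefSeq) that are of the microRNA type or hold a primary transcript with a microRNA, without overlap with a protein-coding gene. Of 326 such loci, 89 overlapped a protein-coding gene, and *MIR319a* (AT4G23713) was left out because the knockdown transgene is built on it, which left 236 microRNA loci of 37899 annotated nuclear loci. Each was analysed in a window of the locus with 500 bp on each side. The loci were 59 to 500 bp long (median 142.5 bp), belonged to 142 families, and lay 31 to 211081 bp from the nearest protein-coding gene (median 1051.5 bp). The windows of 76 loci reached into a protein-coding gene and those of 160 did not.

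In plants a microRNA gene is transcribed by RNA polymerase II, the enzyme that also makes messenger RNA, and its hairpin is cut by DCL1 and loaded into an ARGONAUTE protein, mostly AGO1. A plant microRNA pairs along nearly its whole length with its target transcript, which is then cut or not translated. Many families are old and shared by land plants, and their targets are often transcription factors of development or proteins of nutrient supply. H3K4me3 marks the start of transcribed genes, H3K36me3 their body, the variant H2A.Z the first nucleosomes of genes and the body of responsive genes, and the linker histone H1 compact chromatin.

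Chromatin immunoprecipitation followed by sequencing (ChIP-seq) had been done on seedlings of *Arabidopsis thaliana*, ecotype Columbia, grown for 10 days. The *h3.3kd* plants carry insertion alleles of *HTR4* and *HTR8* and an artificial microRNA under the *HTR5* promoter against *HTR5*, the remaining gene for the histone variant H3.3, and WT plants carry none of these. The sources used here do not say which transgenic line was used. There were 5 antibodies (H3, H3K4me3, H3K36me3, H2A.Z and H1) with 2 replicates per genotype, 20 libraries in all, and neither the tissue within the seedling nor the cell type was separated, so that a mark in fewer cells and less of a mark in every cell cannot be told apart.

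The mature sequences below are those on which the comparisons turn, read from the TAIR10.1 genome of RefSeq at the annotated coordinates, 5′ to 3′, with bases 2 to 8 (the seed) in capitals. The first set targets the small RNA machinery itself: miR168a-5p (chr4:10578652-10578672, plus strand) against *AGO1*, miR162a-3p (chr5:2634936-2634956, minus strand) against *DCL1* and miR403-3p (chr2:19415154-19415174, plus strand) against *AGO2*.
miR168a-5p: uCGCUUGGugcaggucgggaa
miR162a-3p: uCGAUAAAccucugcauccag
miR403-3p: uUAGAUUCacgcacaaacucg

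The second set stands for developmental families, of which several loci share a seed. miR156c-5p (chr4:15415491-15415510, minus strand) acts on *SPL* genes, miR166a-3p (chr2:19176241-19176261, plus strand) and miR165a-3p (chr1:78932-78952, minus strand) on class III homeodomain leucine zipper genes, and miR172b-3p (chr5:1188211-1188231, minus strand) on *AP2*-like genes. The seed CGGACCA was in 9 loci (*MIR165a* and *b*, *MIR166a* to *g*), GACAGAA in 7 and GAAUCUU in 5.
miR156c-5p: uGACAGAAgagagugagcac
miR166a-3p: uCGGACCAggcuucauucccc
miR165a-3p: uCGGACCAggcuucauccccc
miR172b-3p: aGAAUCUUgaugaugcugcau

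The third set comes from loci named in the comparison of the genotypes. miR398a-3p (chr2:1041012-1041032, plus strand) and miR398c-3p (chr5:4694778-4694798, plus strand) act on transcripts for copper/zinc superoxide dismutase and share a seed, and miR397b (chr4:7878730-7878750, minus strand) acts on transcripts for laccases, which are copper enzymes.
miR398a-3p: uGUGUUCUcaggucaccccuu
miR398c-3p: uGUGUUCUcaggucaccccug
miR397b: uCAUUGAGugcaucguugaug

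The fourth set comes from numbered families with low marks or with repeated copies: miR5645d (chr1:16116608-16116627, plus strand), miR5020c (chr2:4770550-4770570, plus strand), miR2933b (chr3:17402794-17402815, minus strand) and miR8167e (chr5:23431703-23431724, minus strand), whose seed was in 6 loci. Across the 236 loci 308 mature microRNAs of 19 to 24 bases were annotated, with 212 seeds, of which 45 occurred in more than 1 locus.
miR5645d: aUUUGAGUcaugucguuaag
miR5020c: uGGCAUGGaagaaggugagac
miR2933b: gAAAUCGGagaggaaauucgcc
miR8167e: aGAUGUGGagaucguggggaug

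The *h3.3kd* libraries held 10829576 to 68090065 reads (median 18815571.5) and the WT libraries 8688846 to 53927583 (median 22648682). A microRNA window held 6 to 1740 reads in an *h3.3kd* library (median 147) and 3 to 1567 in a WT library (median 171). The longest stretches with WT reads but no read in the 10 *h3.3kd* libraries spanned 46 positions in *HTR4* and 95 in *HTR8*. The 10 WT libraries had 238 and 499 reads there. The absence of *h3.3kd* reads was the rule by which the stretches were chosen, so it is no separate check. Replicate 2 of H3K4me3 and of H2A.Z was deposited without strand in both genotypes. The H3 library of WT replicate 2 stood apart over the microRNA loci, with a median of 3.39 (log2 of reads per 1000000), against 3.16 and 2.99 in *h3.3kd* and 3.06 in WT replicate 1, and as the denominator it enters each WT value of replicate 2 below. Genes for leaf photosynthesis, a check of the labelled tissue, had median H3K4me3 over H3 of 0.68 in *h3.3kd* and 0.66 in WT (log2), against 0.05 and 0.30 for seed storage genes, which are silent in seedlings.

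The first question was how much of each mark the microRNA loci carried. A level is given as the log2 ratio of the mark to H3 of the same genotype and replicate number, both per 1000000 reads of the library, so that 0 means as many reads of the mark as of H3. The median H3K4me3 level of the 236 loci was -0.39 and -0.55 in *h3.3kd* replicates 1 and 2, and -0.05 and -0.73 in WT. For H3K36me3 the medians were -1.19 and -0.52 in *h3.3kd*, against -0.46 and -0.69 in WT. H2A.Z stood higher, at 0.21 and 0.39 in *h3.3kd* and at 0.47 and -0.04 in WT, and H1 was close to H3, between -0.16 and 0.07 in the 4 ratios. The libraries of the genotypes overlapped for each of the 4 marks.

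Protein-coding genes carried more of both methyl marks. The microRNA median was lower than the protein-coding median by 0.69 ± 0.30 for H3K4me3 and by 0.81 ± 0.33 for H3K36me3 (mean ± SD over the 4 libraries of a mark), in each of the 4, for which the exact two-sided sign-flip test gives p = 0.125, the smallest that 4 libraries allow. H2A.Z and H1 differed by 0.01 ± 0.16 and 0.00 ± 0.13. The windows were not alike, with a median GC content of 32.6% and a median length of 1142.5 bp for microRNA loci, against 37.0% and 3078 bp for protein-coding genes. Long non-coding RNA loci outside protein-coding genes (2058 loci, median GC content 32.7%) were closer, and the microRNA median was above theirs by 0.16 for H3K4me3 and by 0.08 for H3K36me3, in 4 of 4 libraries each. Against 487 transfer RNA genes, which RNA polymerase III transcribes, microRNA loci had lower H3K36me3 in 4 of 4 libraries (mean difference -0.62), lower H3K4me3 in 3 of 4 (-0.31) and higher H1 in 4 of 4 (0.26).

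**Figure D1:**
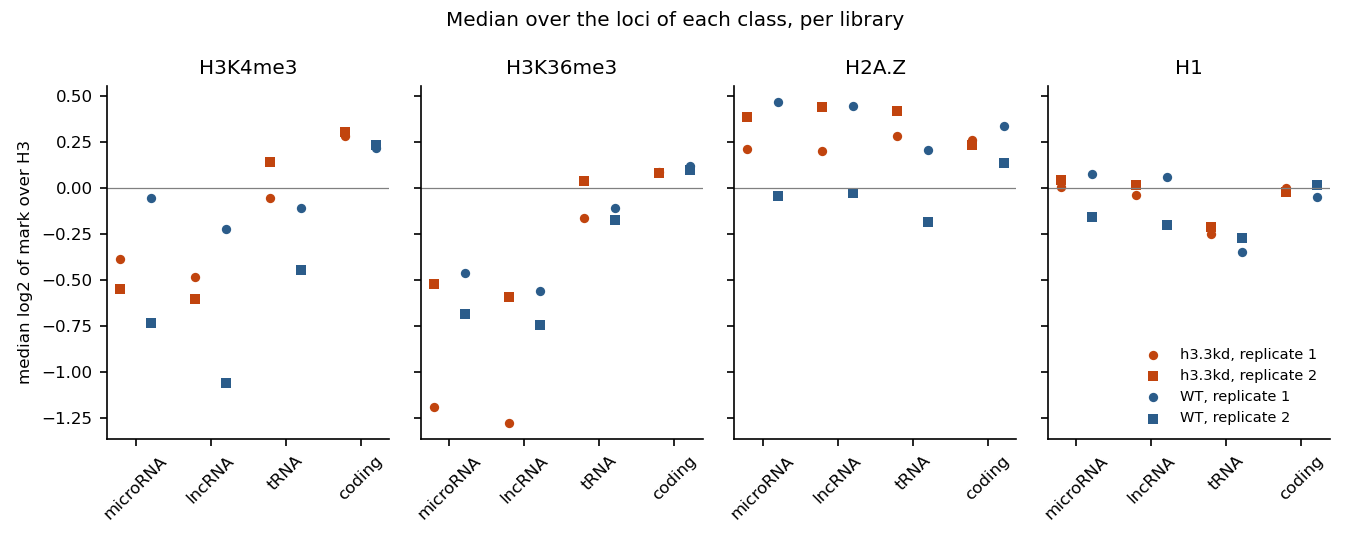
Median log2 ratio of each mark to H3 over the loci of 4 classes (microRNA, long non-coding RNA, transfer RNA and protein-coding), 1 point per library, *h3.3kd* in orange left of WT in blue, circles for replicate 1 and squares for replicate 2. MicroRNA and long non-coding RNA loci lie below protein-coding genes for H3K4me3 and H3K36me3 in each library, and the classes overlap for H2A.Z.

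Locus by locus, limma called 32 of 236 microRNA loci higher and 77 lower for H3K4me3 than for H3 in *h3.3kd* (adjusted p under 0.05), against 33.6% and 24.3% of all loci tested. In WT 18 were higher and 52 lower, against 21.4% and 12.3% of all loci. All 18 loci called higher in WT were among the 32 called in *h3.3kd* (56.2% of those), and 44 were lower in both, 57.1% of the *h3.3kd* list and 84.6% of the WT list. The genotypes share 1 estimate of the spread, so these lists are not independent. The counts changed when 1 replicate of a genotype was left out, with its libraries of all 5 antibodies at once. They changed also for the genotype whose libraries all stayed in. Such a fit has fewer libraries to estimate the shared spread, so the change cannot be laid to a single library. The counts depended on GC content as well. With a correction for it, 57 were higher and 52 lower in *h3.3kd* (24.2% and 22.03%, against 24.5% and 23.1% of all loci), and 34 were higher and 19 lower in WT (14.4% and 8.05%, against 8.75% and 5.07%). The corrected median was -0.09 in *h3.3kd* and -0.03 in WT, against 0.06 and 0.04 over all loci, so that microRNA loci lay closer to all loci than without the correction.

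**Figure D2:**
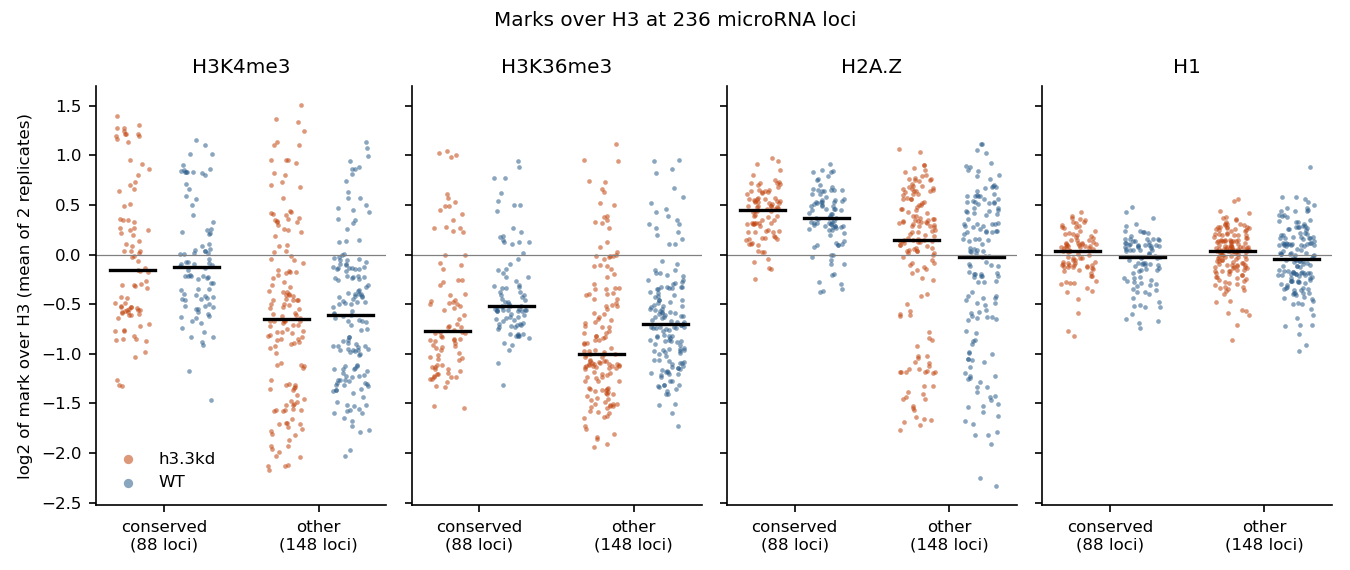
Log2 ratio of each mark to H3 at the 236 microRNA loci (mean of 2 replicates), 1 point per locus, *h3.3kd* in orange left of WT in blue, split into 88 loci of conserved families and 148 of other families, with the median as a bar. The lowest H2A.Z values, down to -1.76 in *h3.3kd* and -2.33 in WT, are in the other families.

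Families shared among flowering plants carried more H3K4me3 than the rest. The median of the 88 loci in conserved families was -0.12 and -0.11 in *h3.3kd* and 0.17 and -0.49 in WT, and that of the 148 other loci -0.54 and -0.68 in *h3.3kd* and -0.25 and -0.90 in WT. The difference was 0.45 ± 0.08 (mean ± SD over 4 libraries) and had the same sign in 4 of 4, as had those for H3K36me3 (0.19 ± 0.05) and H2A.Z (0.33 ± 0.09). For H1 it was -0.01 ± 0.07. Restricted to windows of which at least 90% of 50-base words occur once in the genome, the differences were 0.33 for H3K4me3, 0.11 for H3K36me3 and 0.20 for H2A.Z, and restricted to windows outside protein-coding genes they were 0.77, 0.29 and 0.68. No conserved locus was called lower for H2A.Z, with 10 higher in *h3.3kd* and 13 in WT (11.4% and 14.8%, below the 18.4% and 24.7% of all loci). Among the 148 other loci 17 were higher and 20 lower in *h3.3kd*, and 14 were higher and 28 lower in WT. Their lower shares were near the 12.0% in *h3.3kd* and 16.6% in WT of all loci. The list of conserved families and the role lists were drawn up with results of these data known and are given as a description.

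The loci that act back on the small RNA machinery carried the most H3K4me3 of the role lists, and 4 of the 5 (*MIR162a*, *MIR162b*, *MIR168a*, *MIR168b* and *MIR403*) were called higher in *h3.3kd* and 3 in WT, with medians of 1.21 and 0.86. Of all loci 33.6% in *h3.3kd* and 21.4% in WT were called higher. *MIR403* (AT2G47275, chr2:19415052-19415186) had H3K4me3 over H3 of 1.03 and 1.76 in *h3.3kd* and 1.76 and 0.55 in WT, and the difference from H3 was 1.39 ± 0.38 (SE, adjusted p = 0.00969) in *h3.3kd* and 1.15 ± 0.38 (adjusted p = 0.035) in WT. *MIR168a* (AT4G19395, chr4:10578635-10578772) had 1.28 and 1.33 in *h3.3kd*, against 1.5 and 0.72 in WT. *MIR162a* (AT5G08185, chr5:2634905-2635044) had 1.05 and 1.35 in *h3.3kd*, against 1.05 and 0.67 in WT. In these 3 genes each of the 4 ratios was above 0, and the difference between genotypes was not called. They also had H3K36me3 above H3, with 1.00 and 0.98, 1.17 and 0.91, and 1.27 and 0.73 in *h3.3kd*. *MIR168b*, the second *AGO1*-directed locus, was not called for H3K4me3 in either genotype (0.64 in *h3.3kd* and 0.59 in WT).

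Developmental families were mixed. Of 62 loci 14 were called higher and 7 lower for H3K4me3 in *h3.3kd* and 7 higher and 4 lower in WT, with a median of -0.10 in both. The higher shares, 22.6% in *h3.3kd* and 11.3% in WT, lay below the 33.6% and 21.4% of all loci. *MIR156c* (AT4G31877, chr4:15415418-15415521), whose product holds plants in the juvenile phase, had H3K4me3 over H3 of 1.19 and 1.23 in *h3.3kd* and 1.26 and 0.77 in WT. *MIR160a* (AT2G39175), directed at auxin response factors, had 0.58 and 1.14 in *h3.3kd* and 0.76 and 0.91 in WT. *MIR172a* and *MIR172b* had means of 0.91 and 0.96 in *h3.3kd* and of 0.83 and 0.85 in WT. All 4 genes were called higher in both genotypes, while *MIR159a* (directed at *MYB33* and *MYB65*) and *MIR166a* were called in *h3.3kd*, at 1.24 and 1.14, and had 1.02 (adjusted p = 0.0773) and 0.82 (adjusted p = 0.0642) in WT.

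Loci of 1 family did not carry the same level. Within the 7 loci of miR166 the H3K4me3 mean ran from -0.69 to 1.27 in *h3.3kd* and from -0.83 to 0.82 in WT, although these loci share their seed. *MIR165a*, which shares that seed as well, had 0.25 and 0.28 in *h3.3kd* and 0.29 and -0.50 in WT. The 13 loci of miR169, which acts on *NF-YA* transcription factors, had no H3K4me3 mean above 0 in either genotype. Of these, 5 were called lower in *h3.3kd* and 2 in WT, against 24.3% and 12.3% of all loci. The windows of *MIR169i* to *MIR169n* each overlap that of a neighbour, so these loci share reads, as do 31 of the 236 loci in all, among them *MIR395e* and *MIR395f*, *MIR399d* and *MIR399e*, and *MIR397b*. H2A.Z over the same loci had a mean above 0 in 12 of 13 in *h3.3kd* and 13 of 13 in WT. *MIR164a*, directed at *CUC* genes that set organ boundaries, had H3K4me3 of 0.02 and -0.32 in *h3.3kd* and -0.15 and -0.01 in WT, beside H2A.Z of 0.79 and 0.66 in *h3.3kd* and 0.80 and 1.03 in WT, and was called higher for H2A.Z in both.

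Neither the triggers of secondary small RNA nor the loci of nutrient and metal supply stood high for the methyl marks. Of the 4 trigger loci, which start the phased small RNAs of *TAS* transcripts, none was called for H3K4me3, and *MIR390a* was called lower for H3K36me3 in both genotypes (-0.73 in *h3.3kd* and -0.80 in WT). Of 19 supply loci 1 was called higher and 6 lower for H3K4me3 in *h3.3kd*, and 3 lower in WT. Of all loci 33.6% were higher and 24.3% lower for this mark in *h3.3kd*, and 21.4% and 12.3% in WT. The 6 loci of miR395, which is induced when sulfate is short, had H3K4me3 medians of -0.86 in *h3.3kd* and -0.69 in WT, and the 6 of miR399, induced when phosphate is short, of -0.58 in *h3.3kd* and -0.40 in WT. *MIR827*, a further phosphate-responsive gene, had 0.02 and 0.39 in *h3.3kd* and 0.50 and -0.29 in WT and was not called.

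**Figure D3:**
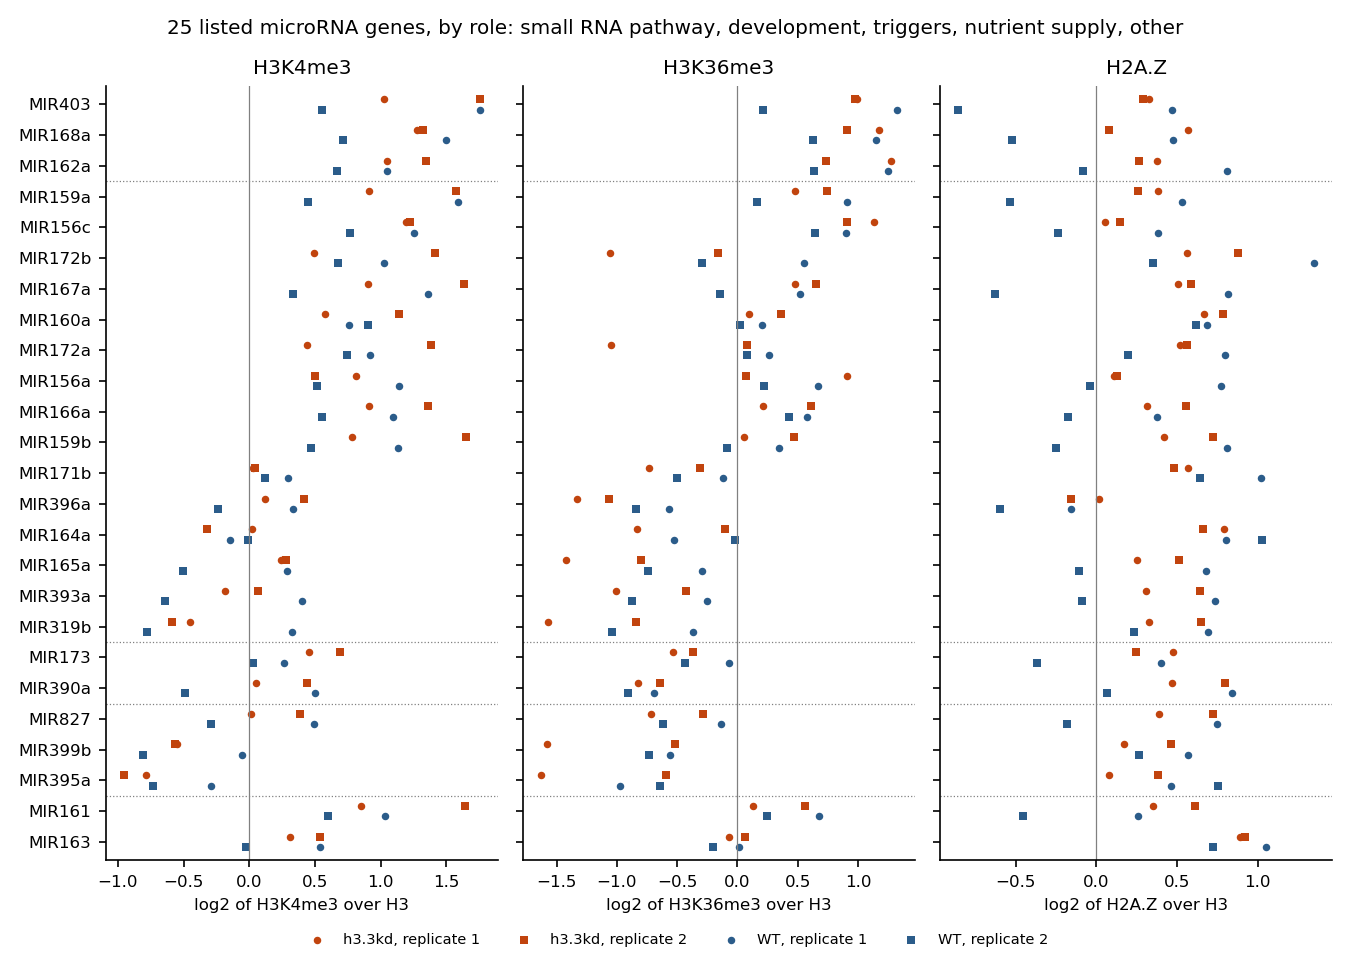
Log2 ratio of H3K4me3, H3K36me3 and H2A.Z to H3 at 25 listed microRNA genes grouped by role, *h3.3kd* in orange above WT in blue within each gene, circles for replicate 1 and squares for replicate 2. *MIR403*, *MIR168a* and *MIR162a* lie right of 0 for H3K4me3 and H3K36me3 in all 4 libraries, and *MIR395a* and *MIR399b* lie left of 0.

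The remaining 146 loci, mostly of families known from few species, held the lowest H3K4me3 values. In this mark 13 were called higher and 64 lower in *h3.3kd*, against 33.6% and 24.3% of all loci. In WT 8 were higher and 45 lower, against 21.4% and 12.3% of all loci. *MIR4228* (AT1G09687, chr1:28889375-28889532) was high in each library, with 1.38 and 1.35 in *h3.3kd* and 1.23 and 1.03 in WT, and was called higher in both (adjusted p = 0.00565 and 0.0154). At the other end *MIR5020c* (AT2G05615, chr2:4770538-4770646) had -1.75 and -2.50 in *h3.3kd* and -1.13 and -2.92 in WT. *MIR2933b* (AT3G07685) had -0.84 and -1.79 in *h3.3kd* and -1.74 and -2.20 in WT, in a window of which 55.3% of words are unique. Of the 6 loci of miR5645, 5 were called lower for H3K4me3 in both genotypes, 5 for H3K36me3 and 5 for H2A.Z. Of all loci 45.9% in *h3.3kd* and 29.0% in WT were lower for H3K36me3, and 12.0% and 16.6% for H2A.Z. At *MIR5645d* H3K4me3 was -1.71 and -2.26 in *h3.3kd* and -0.84 and -2.74 in WT. The exception among the 6 loci, *MIR5645f*, had an H3K4me3 mean of 0.26 in *h3.3kd* and -0.03 in WT.

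By distance to the nearest protein-coding gene, the far loci had the lowest medians. The 27 loci more than 5000 bp away had median levels of -1.65 for H3K4me3, -1.39 for H3K36me3 and -1.18 for H2A.Z in *h3.3kd* and of -1.23, -1.09 and -1.19 in WT. At most 1000 bp away (116 loci) the medians were -0.37, -0.65 and 0.38 in *h3.3kd* and -0.38, -0.48 and 0.30 in WT, and the 93 loci in between were close to these for H3K4me3 and H2A.Z. Of the 27 far loci 12 had under 90% unique words, 2 were of conserved families, and their median GC content was 35.1%. Reads that map to several places had been dropped by the authors, and the part of this in the low values was not tested. Across the 236 loci in WT, Spearman's rho with the unique share was 0.43 for H3K4me3, 0.42 for H3K36me3 and 0.45 for H2A.Z, and with GC content 0.31, 0.29 and 0.23. The points share libraries and base composition, so these values are a description.

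H3K36me3 was below H3 at most microRNA loci. In *h3.3kd* 9 loci were called higher than H3 and 147 lower, against 32.5% and 45.9% of all loci, and in WT 9 higher and 70 lower, against 29.3% and 29.0%. The 7 loci called higher in both genotypes were *MIR156c*, *MIR162a*, *MIR168a*, *MIR447a*, *MIR830*, *MIR870* and *MIR4228*, which is 77.8% of each list, and 62 were called lower in both (42.2% of the *h3.3kd* list and 88.6% of the WT list). *MIR4228* had 1.32 and 0.90 in *h3.3kd* and 1.07 and 0.84 in WT, the highest mean in WT (0.95), followed there by *MIR162a* (0.94) and *MIR865* (0.94). *MIR865* lies 31 bp from *CO*, a flowering gene, and its window reaches into it. The lowest WT means among called loci with at least 50 reads were -1.59 at *MIR854c*, -1.52 at *MIR5645d* and -1.51 at *MIR8168*, and *MIR854c* has 36.4% unique words. With the GC correction the share of low loci fell below that of all loci, with 80 lower in *h3.3kd* (33.9%, against 41.5%) and 24 in WT (10.2%, against 23.8%). The share of high loci stayed below that of all loci, with 27 in *h3.3kd* (11.4%, against 26.0%) and 12 in WT (5.08%, against 21.2%). The corrected medians were -0.36 in *h3.3kd* and -0.17 in WT, against -0.23 and -0.13 over all loci. Without *h3.3kd* replicate 1 none was called in *h3.3kd*, and without *h3.3kd* replicate 2 3 were higher there. Without 1 of the *h3.3kd* replicates 2 were higher and 14 lower in WT, without WT replicate 1 1 was higher and 19 lower in WT, and without WT replicate 2 21 were lower in WT. Without 1 of the WT replicates 15 were higher in *h3.3kd*.

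H2A.Z was above H3 at more loci than the methyl marks, in 177 of 236 by the mean in *h3.3kd*. Limma called 27 loci higher and 20 lower in *h3.3kd*, against 18.4% and 12.0% of all loci, and 27 higher and 28 lower in WT, against 24.7% and 16.6%. Of these, 17 were higher in both, 63.0% of each list, and 18 were lower in both (90% of the *h3.3kd* list and 64.3% of the WT list). *MIR861* (AT3G48201) had 0.87 and 1.26 in *h3.3kd* and 1.45 and 0.77 in WT. *MIR163*, whose product acts on methyltransferase genes, had 0.89 and 0.92 in *h3.3kd* and 1.05 and 0.73 in WT. Both windows reach into a neighbouring protein-coding gene, as does that of *MIR5015*, which had 0.72 and 0.51 in *h3.3kd* and 0.86 and 1.36 in WT. With the GC correction 46 were higher in *h3.3kd* (19.5%, against 18.9% of all loci) and 55 in WT (23.3%, against 25.8%). The lowest means in WT were at *MIR2933b* (-2.33), *MIR5645a* (-2.25) and *MIR5020c* (-1.90). Without *h3.3kd* replicate 1 or 2 none was called in *h3.3kd* and 12 were higher and 6 lower in WT, and without WT replicate 1 1 was higher and 6 lower in WT. Without WT replicate 1 40 were higher and 33 lower in *h3.3kd*, and without WT replicate 2 39 and 33.

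For H1 limma called no microRNA locus higher or lower than H3 in either genotype, with a background of 0% of all loci. At an unadjusted p under 0.05 limma had 0 higher and 4 lower in *h3.3kd*, against 1.79% and 2.99% of all loci, and 4 higher and 8 lower in WT, against 4.32% and 4.29%, and limma-voom called none, with 0 and 2 in *h3.3kd* and 2 and 5 in WT unadjusted. The means ran from -0.86 to 0.56 in *h3.3kd*, a narrower range than for H3K4me3 (-2.17 to 1.51).

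Along the locus, in the direction of transcription, the 500 bp upstream had the least H3K4me3. Upstream minus locus was -0.12 and -0.22 in *h3.3kd* and -0.12 and -0.48 in WT, and upstream minus downstream -0.07 and -0.15 in *h3.3kd* and -0.10 and -0.19 in WT. For H2A.Z upstream minus locus was -0.06 and -0.11 in *h3.3kd* and -0.13 and -0.41 in WT. Upstream thus lay below the locus in 4 of 4 libraries for both marks, while for H2A.Z upstream minus downstream was 0.00 and -0.02 in *h3.3kd* and 0.00 and -0.04 in WT and changed sign between libraries. In the conserved families H3K4me3 was lowest in the first bins of the upstream part and highest at the 3′ end of the locus and just beyond, at 0.40 in *h3.3kd* and 0.53 in WT. In the other families the lowest bin lay downstream in *h3.3kd* (-0.45) and upstream in WT (-0.50). The annotated locus is the hairpin or the known transcript, so the start of transcription may lie upstream of it.

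**Figure D4:**
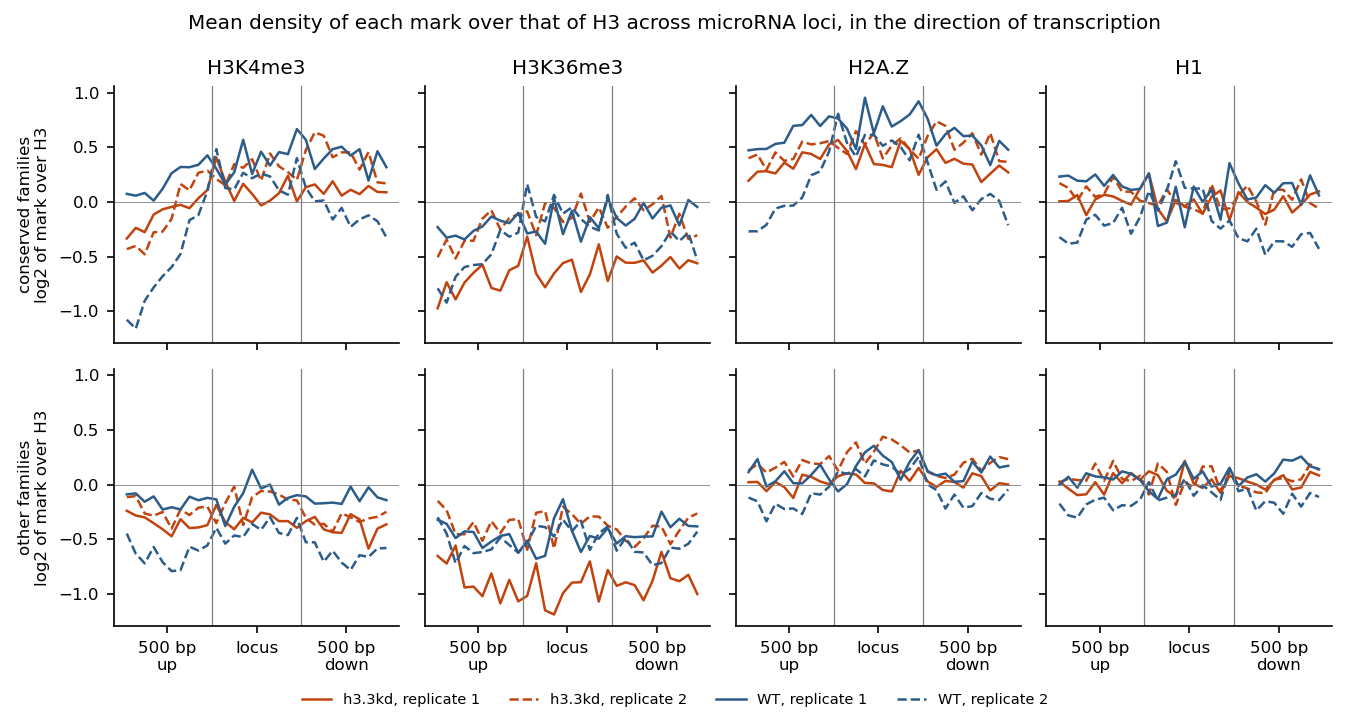
Mean density of each mark over that of H3 (log2) in 10 bins each of the 500 bp upstream, the locus and the 500 bp downstream, for conserved families (top) and other families (bottom), 1 line per library, *h3.3kd* in orange and WT in blue, solid for replicate 1 and dashed for replicate 2. In conserved families H3K4me3 climbs across the upstream part, and the WT replicate 2 line drops below the others at the outer ends of both flanks for H3K4me3, H2A.Z and H1.

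The second question was whether the knockdown of H3.3 changed any of this. The median difference between *h3.3kd* and WT over the 236 loci was 0.04 for H3K4me3, -0.19 for H3K36me3, 0.10 for H2A.Z, 0.05 for H1 and -0.12 for H3 itself (log2). None of these held in both replicates. Within replicate 1 the medians were -0.32 for H3K4me3, -0.58 for H3K36me3, -0.16 for H2A.Z and -0.07 for H1, and within replicate 2 they were 0.35, 0.23, 0.37 and 0.22, and H3 itself had 0.07 and -0.39. The sign thus turned between replicates for each of the 5 antibodies. With 2 libraries against 2 the smallest p that a permutation test of such a value can give is 0.333.

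Locus by locus limma called 1 microRNA locus, higher in *h3.3kd* for H3K4me3, against 0.349% of all loci called higher and 0.00800% called lower for this mark. For H3, H3K36me3, H2A.Z and H1 it called none, against 0.0267% higher and 0.0107% lower of all loci for H3K36me3 and 0% for the other 3. At an unadjusted p under 0.05 limma had 25 microRNA loci higher and 4 lower for H3K4me3 (5.91% and 0.770% of all loci), 5 and 6 for H3K36me3 (1.65% and 1.24%) and 18 and 2 for H2A.Z (2.73% and 2.78%). For H1 it had 6 and 5 (0.906% and 1.52%) and for H3 0 and 1 (0.139% and 0.165%). Limma-voom called none for any of the 5 antibodies, with 1 higher for H3K4me3, 1 higher for H2A.Z and none otherwise at an unadjusted p under 0.05. When 1 replicate of a genotype was left out, the other stood alone for that genotype, and the number of calls changed for each antibody. Without WT replicate 1 the median difference over the 236 loci was 0.40 for H3K4me3 and 0.18 for H1. Without WT replicate 2 it was -0.34 for H3K4me3 and -0.08 for H1. By the values themselves, both *h3.3kd* libraries lay above both WT libraries at 24 loci for H3K4me3, 14 for H3K36me3, 40 for H2A.Z, 48 for H1 and 15 for H3, which is 10.2%, 5.93%, 16.9%, 20.3% and 6.36%, against 19.0%, 9.93%, 17.9%, 12.9% and 15.1% of all loci. They lay below both at 20, 39, 21, 30 and 52 loci, which is 8.47%, 16.5%, 8.90%, 12.7% and 22.03%, against 14.6%, 14.8%, 16.2%, 16.9% and 9.45% of all loci.

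The locus called for H3K4me3 was *MIR398a* (AT2G03445, chr2:1040938-1041042, plus strand), 346 bp from *PAP9*, a gene for a purple acid phosphatase, with 100% unique words. Its window reaches into *PAP9*. H3K4me3 over H3 was 0.16 and 0.86 in *h3.3kd* and -0.10 and -0.71 in WT, a difference of 0.91 ± 0.21 (SE, adjusted p = 0.0164), and the genotypes did not overlap. The H3K4me3 reads per 1000000 were 7.90 and 8.12 in *h3.3kd* and 6.35 and 5.79 in WT, and those of H3 7.08 and 4.43 in *h3.3kd* and 6.80 and 9.55 in WT. Much of the ratio thus lay in H3, which was lowest in *h3.3kd* replicate 2 and highest in WT replicate 2. With no H3 denominator the difference was 0.40 and was not called (adjusted p = 1.00). It was called with the pooled H3 of a genotype as the denominator (0.83). It was not called with replicate 1 of H3 as the denominator (0.34), with flanks of 250 bp (0.90), with no filter on low windows (0.91), with 1 read per position (0.85), with the correction for lost duplicates (0.93), with limma-voom (0.90), without *h3.3kd* replicate 1, without *h3.3kd* replicate 2 (0.56), or with a replicate block (adjusted p = 0.0503). By section, the 500 bp downstream had 0.69 and 0.99 in *h3.3kd* and 0.19 and -0.48 in WT, and the 500 bp upstream -0.36 and 0.79 in *h3.3kd* and -0.13 and -0.76 in WT. The locus itself had -0.68 and 0.27 in *h3.3kd* and -1.22 and -1.30 in WT, from 7 to 14 reads of H3 in a library. The genotypes thus overlapped upstream, and not over the locus or downstream.

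*MIR398c*, which encodes nearly the same microRNA at another site, and *MIR397b*, a further gene induced by copper shortage, were the members with the smallest p in a direction for 1 antibody each. *MIR398c* (AT5G14565, chr5:4694694-4694808, plus strand) had H3K36me3 over H3 of 0.16 and 0.83 in *h3.3kd* and 0.08 and -0.37 in WT, a difference of 0.64 with an adjusted p of 0.343 by limma. Its H3K4me3 was 0.72 and 1.66 in *h3.3kd* and 0.90 and 0.52 in WT, and the genotypes overlapped. *MIR397b* (AT4G13555, chr4:7878652-7878760, minus strand) had 4.95 and 4.23 reads of H3 per 1000000 in *h3.3kd* and 7.06 and 9.78 in WT, a difference of -0.85 ± 0.33 that was not called. Its H3K4me3 over H3 was -0.19 and -0.14 in *h3.3kd* and -0.46 and -1.36 in WT, and its H2A.Z 0.33 and 0.47 in *h3.3kd* and 0.03 and -0.57 in WT, both without overlap and neither called. The locus was named for its low H3 in *h3.3kd*, the denominator of both ratios, so they are not separate from it. In the 500 bp upstream, H2A.Z reads per 1000000 were 3.58 and 3.76 in *h3.3kd* and 4.26 and 4.40 in WT. Downstream they were 1.94 and 1.45 against 2.00 and 1.51. For H3K4me3 they were 2.14 and 2.12 against 2.85 and 2.08 upstream, and 1.76 and 1.21 against 1.64 and 1.09 downstream. The 3 other copper-responsive names looked for, *MIR397a*, *MIR398b* and *MIR408*, were not among the 236 loci. *MIR857*, of the nutrient and metal supply list, is among them, and its window overlaps that of *MIR397b*. Its values are not given here.

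**Figure D5:**
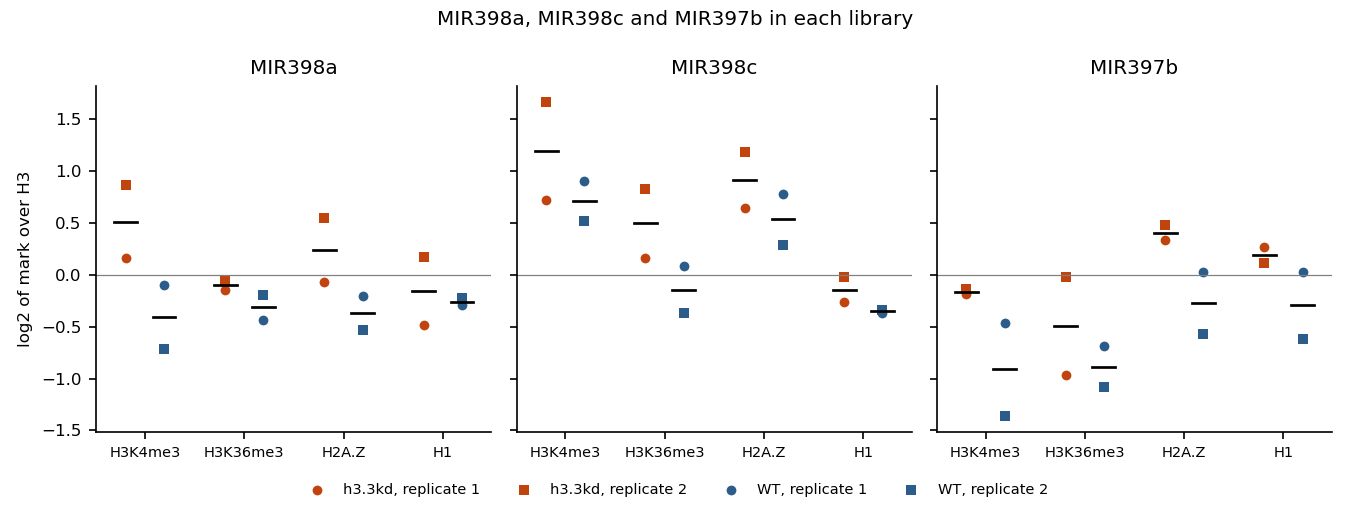
Log2 ratio of H3K4me3, H3K36me3, H2A.Z and H1 to H3 at *MIR398a*, *MIR398c* and *MIR397b*, 1 point per library, *h3.3kd* in orange left of WT in blue, circles for replicate 1 and squares for replicate 2, with the mean as a bar. At *MIR398a* both *h3.3kd* points for H3K4me3 (0.16 and 0.86) lie above both WT points (-0.10 and -0.71).

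The other loci with the smallest p for an antibody are given as values, since none was called. *MIR172b* had H3K36me3 over H3 of -1.06 and -0.16 in *h3.3kd* and 0.55 and -0.29 in WT, a difference of -0.74 (limma adjusted p = 0.621), and its replicates overlapped. *MIR5015* had H3K4me3 of -0.02 and 0.20 in *h3.3kd* and 0.28 and 0.85 in WT, a difference of -0.47 (adjusted p = 0.254). For H3 itself *MIR447b* had 12.6 and 13.5 reads per 1000000 in *h3.3kd* and 11.6 and 8.75 in WT, a difference of 0.37, the rise with the smallest p. For H2A.Z over H3 *MIR447b* had 0.64 and 0.42 in *h3.3kd* and 1.01 and 1.09 in WT, a difference of -0.52, and *MIR8167e* 0.15 and -0.04 in *h3.3kd* and -0.81 and -0.73 in WT, a difference of 0.83 (adjusted p = 0.891 for both). In H1 the differences were 0.96 at *MIR8167b*, which turned to -0.05 with no H3 denominator, and -0.49 at *MIR8167c*. The miR8167 loci are near copies of each other, with 28.5%, 36.3% and 64.0% unique words at *MIR8167e*, *MIR8167b* and *MIR8167c*, and reads that map to several of them were dropped by the authors.

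Of 14 protein-coding genes of the microRNA pathway, among them *DCL1*, *HYL1*, *SE*, *HEN1* and *AGO1*, 6 were called higher for H3K4me3 in *h3.3kd* and 4 in WT, 12 in each genotype for H3K36me3, and none lower. Of all protein-coding genes 41.1% and 26.4% were higher for H3K4me3 in *h3.3kd* and WT, and 40.7% and 37.0% for H3K36me3. Lower were 14.4% and 6.90% for H3K4me3, and 37.6% and 25.7% for H3K36me3. For H2A.Z none of the 14 was higher and 3 were lower in *h3.3kd*, against 22.2% and 6.57% of all protein-coding genes. In WT 1 was higher and 6 were lower, against 29.6% and 11.9%. *DCL1*, which cuts the hairpins and is the target of miR162, had H2A.Z at -0.46 in *h3.3kd* and -0.78 in WT and H3K36me3 at 0.54 in *h3.3kd* and 0.64 in WT. None of the 14 was called between *h3.3kd* and WT by limma for any of the 5 antibodies.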

How the data were processed

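ChIP-seq libraries for H3, H3K4me3, H3K36me3, H2A.Z and H1 from *h3.3kd* and WT seedlings were grouped by genotype and antibody from their labels, 2 replicates each. The authors mapped the reads with Bowtie to TAIR10, kept reads with 1 place in the genome and removed duplicates. The deposited lists hold the chromosome and position of each remaining read, without normalization, at most 2 reads per position, and the library totals above are the numbers of reads listed. In 4 libraries the deposited lists hold no strand and no organelle reads. Errors are the spread between replicates, since an interval from counts would leave that out. Nothing says that replicates came from separate plantings, so p-values measure the spread between these libraries, which may be technical.

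Reads were counted where their leftmost base, the listed position, fell in a window, scaled to 1000000 reads per library, and divided by H3 (genotype and replicate number matched) on the log2 scale with a pseudocount of 0.1, a scale that understates changes at windows with few reads. How the authors assigned H3 libraries is not given in the sources used here. Limma 3.58.1 (R 4.3.3, lmFit and eBayes with a trend) was fitted over all annotated loci with a mean of at least 10 reads, which all 236 microRNA loci passed, adjusted by Benjamini-Hochberg and called under 0.05. One fit of log2 values over the 20 libraries compared each mark with H3, and 1 fit per antibody compared 2 *h3.3kd* with 2 WT libraries. Medians were compared over libraries by exact two-sided sign-flip tests. Other steps ran in Python 3.11.15 (pandas 2.3.3, numpy 2.4.6, scipy 1.17.1, matplotlib 3.10.9). Read numbers of the listed positions were also tested with limma-voom.

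Named loci were 30 listed genes, of which 25 are among the loci (not *MIR169A*, *MIR397A*, *MIR398B*, *MIR408* and *MIR824*), the 3 highest and 3 lowest called loci per mark in WT with at least 50 reads, and for the genotypes the called loci or those with the smallest p in each direction. Outside the rule, *MIR162b*, *MIR168b*, *MIR5645f* and the loci called higher for H3K36me3 in both genotypes were chosen after their values were seen. The loci, the lists and these rules were chosen with earlier results of these data known. The alternatives were other flanks, pseudocounts, filters, library sizes and denominators, 1 read per position, limma-voom and a GC correction (loess, span 0.3). Others were a replicate block, and windows outside protein-coding genes or with at least 90% unique 50-base words. Each replicate of a genotype was also left out in turn, with its libraries of all antibodies at once. An estimate of the reads lost as duplicates and a crossed block were added after the data were seen.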

Additional observations from a re-analysis of the deposited data

Results flagged for a closer look

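The test of the difference between genotypes singled out 1 result. H3K4me3 over H3 at *MIR398a* was higher in *h3.3kd* than in WT by 0.91 on the log2 scale, with an adjusted p of 0.0164 by limma, and both *h3.3kd* libraries lay above both WT libraries. The H3 values of the same window, 7.08 and 4.43 reads per 1000000 in *h3.3kd* and 6.80 and 9.55 in WT, moved with it. Without division by H3 the difference was 0.40, and over H3 of replicate 1 alone it was 0.34, neither of which was called. It was 0.83 with the pooled H3 of a genotype, which was called.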

How the results depend on the processing

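Counts of loci called higher and lower than H3 are given by direction, and counts between genotypes as the total called unless a direction is named. Where no number over all loci stands beside a count, it shows only the effect of the setting and is no result about microRNA loci.

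With at most 1 read per position, *h3.3kd* H3K4me3 had 12 higher, *h3.3kd* H2A.Z 0 higher and 1 lower, WT H3K4me3 0 higher and 0 lower, WT H3K36me3 4 higher and WT H2A.Z 6 higher, no locus was called between genotypes for H3K4me3, and the H1 difference over the locus was 0.0253, against 0.00308. In windows outside protein-coding genes 21 were higher for *h3.3kd* H3K4me3, 11 for *h3.3kd* H2A.Z, 5 for WT H3K36me3 and 14 for WT H2A.Z, and 0 were called between genotypes for H3K4me3. *MIR398a*, the locus called in the main fit, is not among those windows. With the GC correction *h3.3kd* had 57 higher for H3K4me3, 27 higher and 80 lower for H3K36me3 and 46 higher for H2A.Z, WT had 34 higher and 19 lower for H3K4me3, 24 lower for H3K36me3 and 55 higher for H2A.Z, and 5 and 7 were called between genotypes for H3K4me3 and H3K36me3. Median-ratio scaling gave 25 higher for *h3.3kd* H3K36me3, 17 higher for *h3.3kd* H2A.Z and 11 higher for WT H3K4me3. Limma-voom gave 41 higher for *h3.3kd* H2A.Z, 79 lower for WT H3K4me3, 46 lower for WT H3K36me3 and 0 between genotypes for H3K4me3. The correction for lost duplicates gave 11 higher and 5 lower for *h3.3kd* H2A.Z, 3 and 10 for WT H3K36me3, 14 and 12 for WT H2A.Z and 0 between genotypes for H3K4me3. In windows with at least 90% unique words 10 were lower for *h3.3kd* H2A.Z and 16 for WT H2A.Z.

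Between genotypes the H3K4me3 count was 0 with 250 bp flanks, with no filter, with the replicate block and with no H3 denominator, and 3 with the pooled H3. With no H3 denominator H1 differed by -0.0664 upstream and by -0.0245 over the locus, against 0.0968 and 0.00308. With H3 replicate 1 as the denominator 5 were called for H3K36me3 and 1 for H1, the H1 median was -0.139 against 0.0518, and the regional differences were -0.127 upstream and -0.134 downstream for H2A.Z and -0.139 upstream, -0.0536 over the locus and -0.156 downstream for H1.

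No source says that the shared replicate numbers mark a shared batch, and with 2 pairs the data do not settle it. The correlations of deviations were 0.09 for H3, 0.11 for H3K4me3, 0.23 for H3K36me3, -0.12 for H2A.Z and -0.02 for H1, and replicate 2 of H3K4me3 and H2A.Z shared a form of deposit without strand in both genotypes. The replicate block gave 1 call for H3K36me3. The replicate block with the GC correction gave 60 higher for *h3.3kd* H3K4me3, 31 higher and 93 lower for H3K36me3 and 57 higher for H2A.Z, in WT 54 higher and 34 lower for H3K4me3, 20 and 39 for H3K36me3 and 67 higher for H2A.Z, and 35, 26 and 17 calls between genotypes for H3K4me3, H3K36me3 and H2A.Z. The crossed block, chosen after seeing the data, gave 4 calls for H2A.Z.

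Leaving out each library in turn, the counts for *h3.3kd* ran from 0 to 36 higher and 0 to 87 lower for H3K4me3, 0 to 15 and 0 to 156 for H3K36me3, and 0 to 40 and 0 to 33 for H2A.Z. For WT they ran from 0 to 16 and 0 to 77 for H3K4me3, 1 to 12 and 14 to 21 for H3K36me3, and 1 to 24 and 6 to 26 for H2A.Z. Between genotypes they ran from 0 to 87 for H3, 0 to 47 for H3K4me3, 0 to 7 for H3K36me3, 0 to 52 for H2A.Z and 0 to 47 for H1, and the medians from -0.342 to 0.397 for H3K4me3 and from -0.0784 to 0.184 for H1. The lone library of a genotype is then assumed to vary like the others.

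The sign turned for *MIR171b* H3K36me3 in *h3.3kd* (0.069 with the GC correction, with and without the block), *MIR396a* H3K36me3 in WT (0.00868 in both), *MIR397b* in WT (H3K4me3 0.245 and H3K36me3 0.010 in both), and *MIR8167b* H1 between genotypes (-0.051 with no H3 denominator). The cause of these changes was not tested, except that fewer libraries or fewer reads enter the fits that leave some out. Depth limits the shallowest windows most, at 3 reads in a library.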
